A study of Mus musculus with 3 samples.

Results

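The blood-lineage microRNAs (miRNAs) miR-142a, miR-223, miR-342 and miR-150 were examined in exosomes, the small membrane vesicles that cells release, of mouse bone-marrow-derived macrophages. They were chosen by name as 7 of the 1915 mature arms in the deposited tables. These are, as the tables spell them, mmu-miR-142a-5p and mmu-miR-142a-3p, mmu-miR-223-5p and mmu-miR-223-3p, mmu-miR-342-5p and mmu-miR-342-3p, and mmu-miR-150-5p, and the prefix for mouse is left out from here on. There was 1 group of 3 libraries, called libraries 1 to 3 here, all from wild type C57BL/6 mice without a treatment contrast. Marrow cells flushed from the leg bones of adult animals were kept for 24 h with M-CSF, which turns marrow progenitors into macrophages, and vesicles were pelleted by ultracentrifugation from medium with exosome-free serum after 72 h. Nothing in the labels ties the libraries to separate animals or cultures. SDs therefore measure the spread between these 3 libraries alone, and that spread may be technical. The p-values also concern these 3 libraries alone, and those of the chi-square tests are set against counting error. There was no library of the parent cells, and fewer vesicles of a kind and less RNA per vesicle cannot be told apart in a pellet.

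A miRNA hairpin is cut into a duplex of a 5p and a 3p arm, of which usually 1 is kept by an Argonaute protein and the other is degraded. The kept arm recognises messenger RNAs mainly through its seed, bases 2 to 8. MiR-142 is made throughout the blood system and in hardly any other tissue, miR-223 is the characteristic miRNA of granulocytes and monocytes, miR-342 lies in an intron of the actin regulator gene Evl and is found in several leukocyte types, and miR-150 is abundant in mature lymphocytes.

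The mature arms are shown because the results turn on which arm of a hairpin was recovered. Sequences and positions are from RefSeq on GRCm38.p6 (the authors' build, mm10, is the same assembly), with the seed in capitals. Of the 7 arms, 6 were matched.
miR-142a-5p: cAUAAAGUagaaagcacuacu
miR-142a-3p: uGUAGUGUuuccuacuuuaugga
miR-223-5p: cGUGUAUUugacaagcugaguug
miR-223-3p: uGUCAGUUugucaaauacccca
miR-342-5p: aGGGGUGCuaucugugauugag
miR-342-3p: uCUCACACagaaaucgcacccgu
These 6 seeds were all different, and none was shared with another miRNA among the 1623 table names that had a sequence. The rest of the 1915 names could not be checked for a family member with the same seed. All 3 of the 3p arms begin with U, the base that Argonaute proteins bind best at the 5′ end together with A, and the 5p arms begin with C, C and A. Among 132 hairpins with sequences and enough counts, 26.5% of 3p arms began with U, while U was the first base of 51.5% of the more abundant arms and 17.4% of the less abundant ones. The lengths were 21 to 23 bases against a median of 22 for the 320 tested miRNAs with a sequence. Both miR-142a arms were poor in G and C, at 33.3% for 5p and 34.8% for 3p, where the median of the same 320 was 47.8%.

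The hairpins are shown with the mature arms in capitals, because they give the place of each arm.
Mir142: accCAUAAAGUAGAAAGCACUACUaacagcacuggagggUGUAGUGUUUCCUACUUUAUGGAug
Mir223: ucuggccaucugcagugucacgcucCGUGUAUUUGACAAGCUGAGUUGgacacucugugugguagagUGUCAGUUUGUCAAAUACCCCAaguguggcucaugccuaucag
Mir342: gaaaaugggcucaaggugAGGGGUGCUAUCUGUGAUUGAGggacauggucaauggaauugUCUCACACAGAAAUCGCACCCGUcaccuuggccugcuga
Mir142 lies at chr11:87756864-87756927 on the plus strand, within an intron of the long noncoding gene Mir142hg in the GENCODE annotation. Mir223 lies at chrX:96242817-96242926 on the plus strand and overlaps exons of the noncoding gene F630028O10Rik. Mir342 lies at chr12:108658620-108658718 on the plus strand within an intron of Evl. The arms of these hairpins have 1 locus each in the RefSeq table, so no gene copy shares their counts.

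The opposite strand at the Mir142 locus is annotated with a miRNA of its own, miR-142b, whose 20 bases lie at chr11:87756906-87756925 on the minus strand. They are shown to compare them with miR-142a-5p.
miR-142b: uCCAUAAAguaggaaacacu
All 20 bases are the reverse complement of a stretch of miR-142a-3p. Because the arms of the Mir142 duplex pair with each other, miR-142b is also close to miR-142a-5p. Aligned without gaps, 16 of 18 bases were the same, and the substitutions, with positions counted from the 5′ end of miR-142a-5p and its base first, were A11G and G14A. MiR-142b starts 2 bases earlier, so its seed is another one. Whether the counting used strand was not given in the sources used here.

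**Figure D1:**
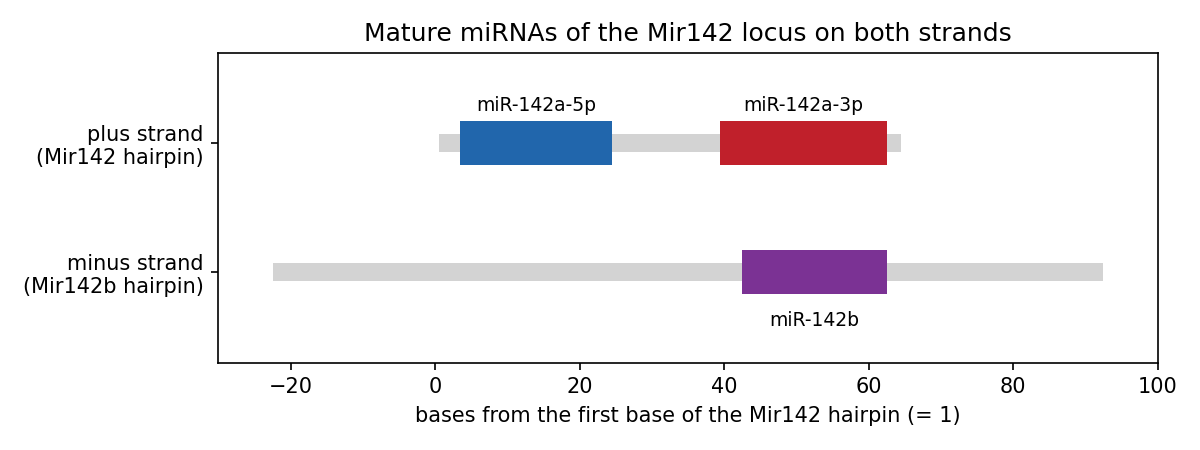
Map of the Mir142 locus, drawn to scale in bases from the first base of the Mir142 hairpin. Grey bars are the hairpins on each strand and coloured bars the mature miRNAs. All 20 bases of miR-142b lie opposite miR-142a-3p.

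The libraries held 3008995, 2489984 and 3208617 counts assigned to miRNAs, and levels are counts per 1000000 of these (CPM). A count of 0 allows up to 3 counts, or 0.997, 1.20 and 0.935 CPM in libraries 1, 2 and 3. Intervals (95%) and these floors cover counting error only. Library 1 stood apart over the whole profile. Of the 353 miRNAs whose counts summed to 30 or more, 213 were highest in library 1 and 97 were lowest there. Over the 134 miRNAs that averaged 100 CPM or more, the median log2 ratio of library 1 was 0.62 to library 2 and 0.96 to library 3, and each ratio below can be read against that shift.

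The 7 arms together took 0.142% ± 0.0910 of miRNA counts (SD, n = 3), a small part of the vesicle profile. The share was 0.0557% in library 1 (Wilson interval 0.0531 to 0.0584), 0.237% in library 2 (0.231 to 0.243) and 0.134% in library 3 (0.130 to 0.138). No intervals overlapped, library 1 was lowest, and without library 2 the mean was 0.0948%. MiR-142a made up most of it, with 60.1%, 92.0% and 90.2% of the members' counts in libraries 1, 2 and 3.

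MiR-142a-3p, the better studied of the miR-142a arms, had the highest mean of the 7 and, of the 5 that averaged 10 CPM or more, the least even level. It had 129, 3396 and 2628 counts in libraries 1, 2 and 3, which is 42.9, 1364 and 819 CPM, and the rank among all miRNAs was 172, 51 and 62. Library 1 was far below both others, by 31.8-fold against library 2 and 19.1-fold against library 3. On the log2 scale these ratios were -4.99 (counting interval -5.26 to -4.74) and -4.26 (-4.52 to -4.00), against the positive median shift of the abundant miRNAs. The mean was 742 ± 664 CPM (SD, n = 3), and 431 CPM without library 2. Its coefficient of variation, 89.5%, was above that of 78.5% of the 265 miRNAs that averaged 10 CPM or more.

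MiR-142a-5p, which also acts as a guide in blood cells, varied less. It had 879, 2038 and 1250 counts, or 292, 818 and 390 CPM, at ranks 100, 67 and 80. Library 2 was highest and library 1 lowest, 2.80-fold apart. The ratio of library 1 to library 3 was -0.42 on the log2 scale (counting interval -0.54 to -0.29) with library totals, but -1.28 with TMM factors and -1.29 with DESeq2 size factors. The mean was 500.1 ± 280.03 CPM (SD, n = 3), with a coefficient of variation of 56.0% beside a median of 60.5% over the same 265 miRNAs.

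MiR-342-3p, the next in level by the mean, fell from library 1 to library 3 by CPM. It had 448, 265 and 210 counts, or 149, 106 and 65.4 CPM, with a mean of 107 ± 41.7 CPM (SD, n = 3). Library 1 was highest and library 3 lowest, 2.27-fold apart, and the Wilson intervals (136 to 163, 94.4 to 120.03 and 57.2 to 74.9 CPM) did not overlap. Its log2 ratio of library 1 was 0.48 to library 2 and 1.19 to library 3, near the median shift of 0.62 and 0.96. Its rank hardly moved, at 126, 127 and 131. MiR-342-5p was scarce, with 7, 14 and 15 counts, or 2.33, 5.62 and 4.67 CPM. Its intervals overlapped in all 3 libraries.

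MiR-223 was low, and by CPM it was even. MiR-223-3p, which restrains granulocyte production and neutrophil activity, had 107, 131 and 106 counts, or 35.6, 52.6 and 33.0 CPM. Libraries 1 and 3 lay together and library 2 above them, by 1.48-fold and 1.59-fold. MiR-223-5p had 106, 62 and 89 counts, or 35.2, 24.9 and 27.7 CPM, with overlapping intervals in all 3 libraries. By CPM the coefficients of variation, 26.4% for 3p and 18.2% for 5p, were higher than those of only 14.3% and 7.17% of the 265 miRNAs. They were not computed under other scalings. With TMM factors miR-223-3p was less even, at 25.3, 57.3 and 42.7 per 1000000, with a log2 ratio of library 1 to library 2 of -1.18. Added over both arms, miR-223 stood at 70.8, 77.5 and 60.8 CPM, while miR-142a stood at 335, 2182 and 1209 CPM and miR-342 at 151, 112 and 70.1 CPM.

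MiR-150-5p, a repressor of the transcription factor Myb in lymphocytes, had 0, 0 and 1 counts. Libraries 1 and 2 thus allow up to 0.997 and 1.20 CPM. The other arm, miR-150-3p, had 0 counts in all 3 libraries.

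By the mean the order was miR-142a-3p, then miR-142a-5p, miR-342-3p, miR-223-3p, miR-223-5p, miR-342-5p and miR-150-5p. The means of the miR-142a arms differed by less than their SDs, and those of the miR-223 arms, 40.4 ± 10.6 and 29.3 ± 5.34 CPM (SD, n = 3), by about the SD of the higher one. Libraries 2 and 3 gave this same order. In library 1 miR-142a-5p came first, then miR-342-3p and only after it miR-142a-3p, with a level close to those of both miR-223 arms. Ratios between members of 1 library need no scaling between libraries. MiR-142a-3p had 1.21, 25.9 and 24.8 counts for each count of miR-223-3p in libraries 1, 2 and 3, and 0.288, 12.8 and 12.5 for each count of miR-342-3p. Libraries 2 and 3 were thus alike in both ratios, and library 1 was not. Ligation and PCR favour some sequences, so such ratios between different miRNAs are of reads and not of molecules.

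**Figure D2:**
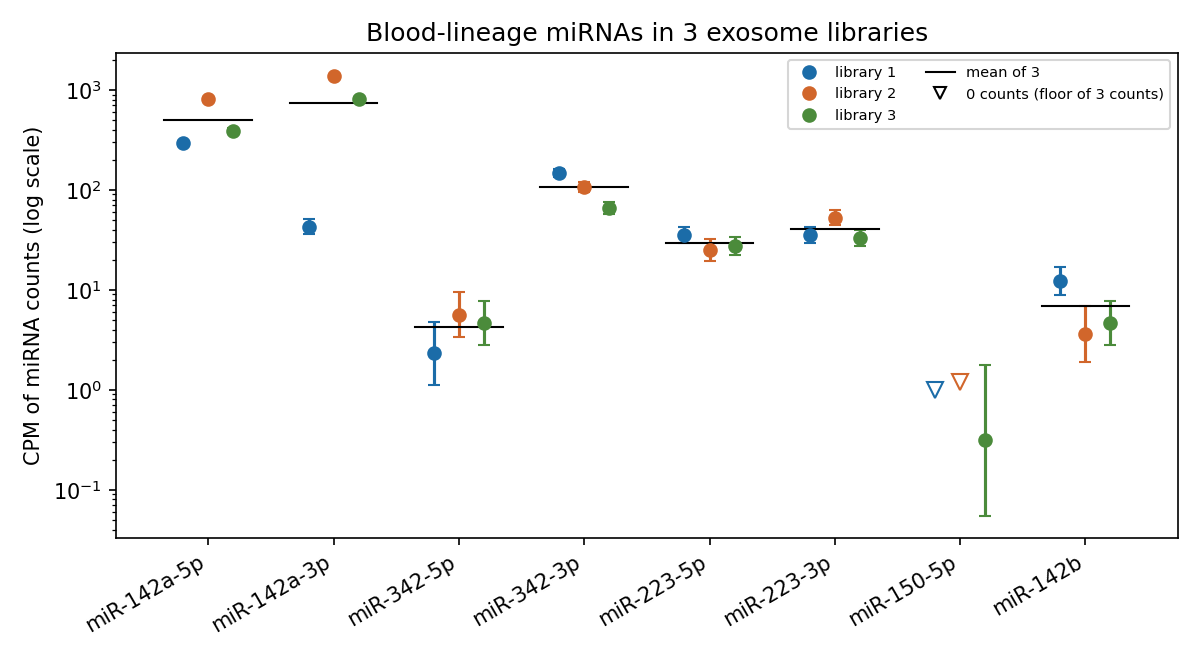
Level of each arm and of miR-142b in libraries 1, 2 and 3, in CPM on a log axis. Points are single libraries with Wilson 95% intervals, black lines the mean of 3 libraries (not drawn for miR-150-5p), and open triangles the floor of 3 counts where the count was 0. MiR-142a-3p in library 1, at 42.9 CPM, lies far below its other libraries, and the miR-223 arms lie close together.

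A chi-square test of each miRNA's counts against the library totals asked which levels differed by more than counting error. It compares these libraries and not conditions. Of the members, 6 had the summed count of 30 needed, and 4 differed at a Benjamini-Hochberg adjusted p below 0.05, against 90.1% of all 353 miRNAs tested. Of the 196 tested miRNAs whose counts summed to less than 500, in which both miR-223 arms and miR-342-5p fall, 83.7% differed. The 4 were both miR-142a arms (adjusted p = 1.14e-189 for 5p, and too small to be represented for 3p), miR-342-3p (1.51e-22) and miR-223-3p (0.000564). With library totals the call for miR-223-3p rested on library 2, without which its adjusted p was 0.610. MiR-223-5p (adjusted p = 0.0719) and miR-342-5p (0.151) did not pass with library totals. They passed with TMM factors, which rescale libraries to the bulk of miRNAs, at adjusted p = 0.0408 and 0.00499, and with DESeq2 size factors at 0.0357 and 0.00424. For miR-223-3p the chi-square adjusted p fell to 1.69e-09 with TMM factors and 4.31e-10 with DESeq2 size factors. MiR-223-5p also passed with library totals when library 3 was left out (adjusted p = 0.0340).

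Scaling decided several of the smaller differences. TMM factors moved the log2 ratio between libraries 1 and 2 from 0.50 to -0.11 for miR-223-5p and from 0.48 to -0.13 for miR-342-3p. They moved the ratio between libraries 1 and 3 from 0.34 to -0.52 for miR-223-5p and from 0.11 to -0.76 for miR-223-3p. MiR-342-3p stayed higher in library 1 than in library 3, at 0.32 with TMM factors and 0.31 with DESeq2 size factors. For miR-142a-3p all scalings gave the same direction. Its log2 ratio of library 1 to library 2 was -5.61 with TMM factors, -5.64 with DESeq2 size factors and -4.72 with the authors' RPM. For miR-142a-5p these were -2.10, -2.14 and -1.22.

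**Figure D3:**
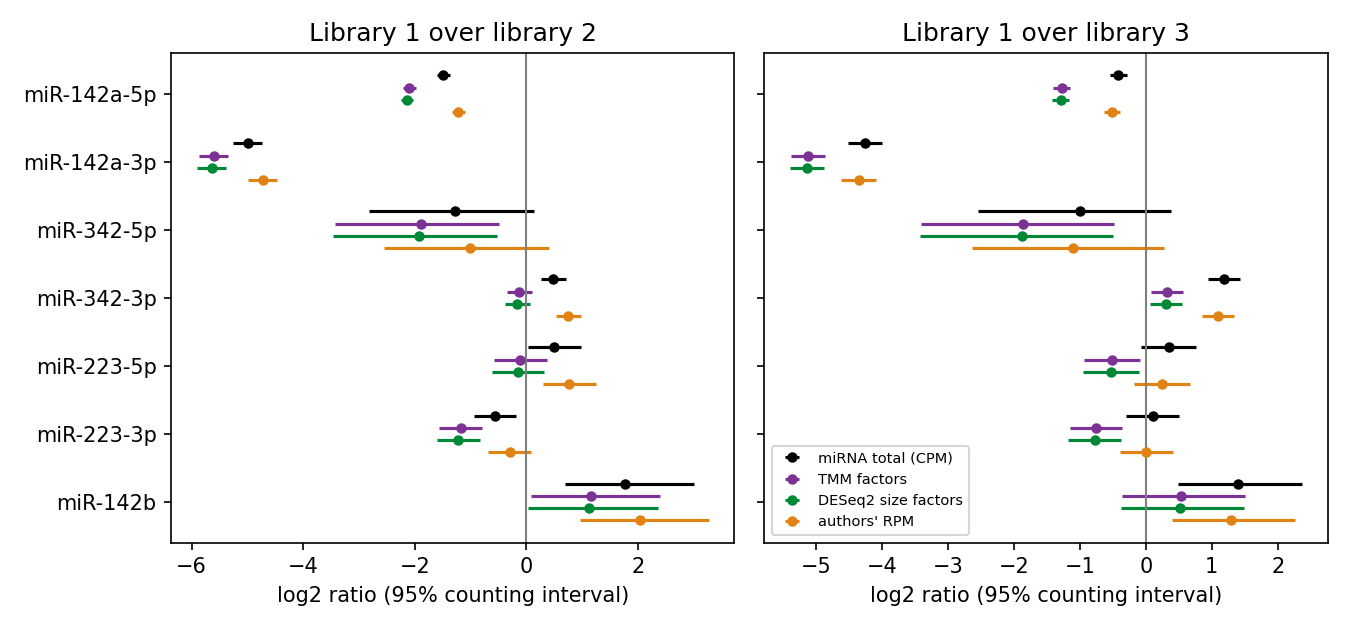
Log2 ratio of library 1 to library 2 (left) and to library 3 (right) for each arm with more than 3 counts in both libraries and for miR-142b, under 4 scalings. Bars are 95% counting intervals. MiR-142a-3p lies far left of 0 under every scaling, while miR-223-5p changes side.

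The share of the 3p arm within each hairpin needs no scaling, since both arms come from 1 library. In miR-142a the 3p arm made up 12.8% of 1008 counts in library 1 (Wilson interval 10.9 to 15.0), 62.5% of 5434 in library 2 (61.2 to 63.8) and 67.8% of 3878 in library 3 (66.3 to 69.2). The more abundant arm was thus 5p in library 1, by 6.81-fold, and 3p in libraries 2 and 3, by 1.67-fold and 2.10-fold. The odds of the 3p arm were 11.4 times as high in library 2 as in library 1 (exact 95% interval 9.34 to 13.9) and 14.3 times as high in library 3 (11.7 to 17.6). Between libraries 2 and 3 they differed little, at 0.793 (0.726 to 0.865).

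In miR-223 the arms were nearly balanced. The 3p arm made up 50.2% of 213 counts in library 1 (43.6 to 56.9), 67.9% of 193 in library 2 (61.0 to 74.1) and 54.4% of 195 in library 3 (47.4 to 61.2). Libraries 1 and 3 overlapped 50% and each other, and library 2 stood above, with odds 2.09 times those of library 1 (1.37 to 3.20).

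In miR-342 the 3p arm dominated everywhere. Its share was 98.5% of 455 counts in library 1 (96.9 to 99.3), 94.98% of 279 in library 2 (91.8 to 97.0) and 93.3% of 225 in library 3 (89.3 to 95.9). The odds of the 3p arm were lower in libraries 2 and 3 than in library 1, at 0.296 (0.0999 to 0.796) and 0.219 (0.0745 to 0.582) of it, a difference that rested on 7, 14 and 15 counts of the 5p arm.

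**Figure D4:**
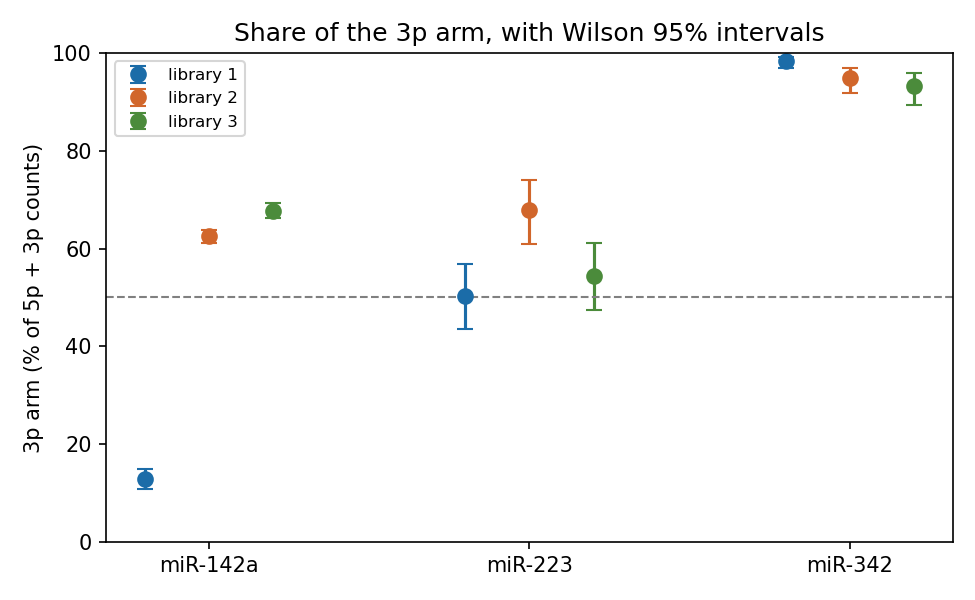
Share of the 3p arm among the counts of both arms of miR-142a, miR-223 and miR-342 in each library, in percent, with Wilson 95% intervals. The dashed line marks equal arms. MiR-142a changes from 12.8% in library 1 to 62.5% and 67.8%, while miR-342 stays above 93%.

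Whether 1 arm was higher beyond the spread between libraries was tested with edgeR's quasi-likelihood test, with library as a term. It covered 157 hairpins with both arms named and a summed count of at least 60. The spread is estimated largely over all hairpins together, so an SE is not a hairpin's own spread. Over all of them the 3p arm was higher in 38.9% and the 5p arm in 41.4% at an adjusted p below 0.05. MiR-342 passed with 3p higher, by 4.63 ± 1.06 on the log2 scale (SE, edgeR adjusted p = 3.19e-05), in 3 of 3 libraries. MiR-142a did not, with a log2 ratio of 3p to 5p of -0.17 ± 0.97 (SE, edgeR adjusted p = 0.886), which averages over opposite signs. Without library 1 the ratio was 0.90 (edgeR adjusted p = 0.240), and without the library term, which weights libraries by their counts, 0.57. MiR-223 did not pass either, at 0.44 ± 0.93 (SE, edgeR adjusted p = 0.670), although 3p was the higher arm in 3 of 3 libraries, by a single count in library 1. Over the 3 libraries the SD of the log2 arm ratio was 2.13 in miR-142a, 0.56 in miR-223 and 1.16 in miR-342. The SEs differed far less than these SDs.

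Whether the arm ratio moved between libraries by more than counting error was tested by chi-square on 81 hairpins with expected counts of at least 5, of which 93.8% passed at an adjusted p below 0.05. All 3 hairpins passed, as nearly all did, with adjusted p = 3.41e-226 for miR-142a, 0.00130 for miR-223 and 0.00228 for miR-342. MiR-223 did not pass without library 2 (adjusted p = 0.443) nor miR-342 without library 1 (0.494), while miR-142a passed whichever library was left out. They differed in how far the ratio moved. The log2 arm ratio ranged over 3.84 in miR-142a, 1.07 in miR-223 and 2.19 in miR-342. The value for miR-142a rested on library 1, without which it was 0.34. Among the 59 hairpins with at least 10 counts of each arm in each library the median range was 2.00, and miR-142a ranked 8 and miR-223 ranked 49. MiR-342 is not among the 59 because of its 7 counts of the 5p arm in library 1.

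Most hairpins moved the opposite way to miR-142a. The log2 ratio of 3p to 5p was lower in both libraries 2 and 3 than in library 1 in 62.7% of the 59 hairpins, and higher in 27.1%, or 16 hairpins, among them miR-142a and miR-223. Over the 157 tested hairpins the median share of the 3p arm was 50.2% in library 1, 35.1% in library 2 and 42.3% in library 3. Summed over them, 3p arms took 39.9%, 15.7% and 13.7% of counts, but a few abundant miRNAs weigh heavily in these sums, such as miR-21a-5p with 112284, 760138 and 839015 counts. The more abundant arm differed between libraries in 11.5% of the 157 tested hairpins. In 1.91% of them, or 3 hairpins, it was 5p in library 1 and 3p in libraries 2 and 3, as in miR-142a.

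**Figure D5:**
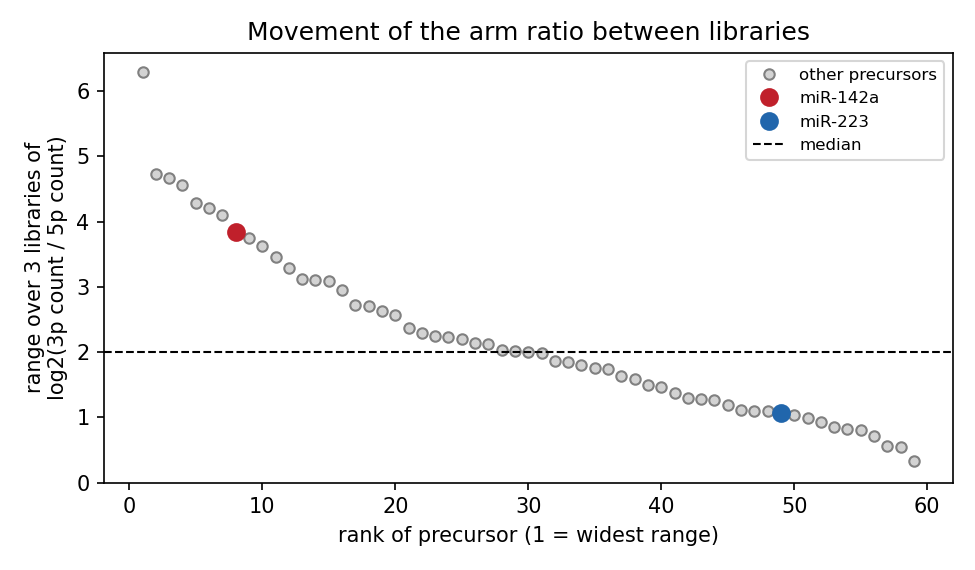
Range over the 3 libraries of the log2 ratio of 3p to 5p counts, for the 59 hairpins with at least 10 counts of each arm in each library, ordered by that range. MiR-142a ranked 8 with a range of 3.84 and miR-223 ranked 49 with 1.07. The dashed line is the median of 2.00.

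MiR-142b, from the strand opposite miR-142a, had 37, 9 and 15 counts, or 12.3, 3.61 and 4.67 CPM. It was highest in library 1, where miR-142a-3p was lowest, and its interval there (8.92 to 16.9 CPM) did not overlap those of libraries 2 and 3. Its counts were 4.21%, 0.442% and 1.20% of those of miR-142a-5p. The difference passed the chi-square test (adjusted p = 0.000119). With TMM factors its log2 ratio of library 1 to library 3 was 0.53, with a counting interval that held 0. Its sequence is close to that of miR-142a-5p, so reads with errors may be shared, and this was not tested.

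The miRNAs nearest to each member in pattern were found by the largest difference in log2(CPM + 1), centred on each miRNA's mean, over the 3 libraries, among the 134 that averaged 100 CPM or more. With 3 libraries this is a description only. Nearest to miR-142a-3p were miR-155-5p (74.8, 2388 and 829 CPM, largest difference 0.52), let-7f-5p (0.54) and let-7d-5p (0.60). Nearest to miR-142a-5p was miR-19b-3p (839, 2391 and 1162 CPM, largest difference 0.028), followed at a distance by miR-15b-5p (0.33) and miR-26b-5p (0.37). MiR-342-3p lay nearest to miR-32-5p (459, 333 and 209 CPM, largest difference 0.023), miR-3535 (0.048) and miR-221-3p (0.12). MiR-223-5p lay nearest to miR-1843b-5p (0.073), miR-222-5p (0.088) and miR-16-5p (0.13), and miR-223-3p to miR-23b-3p (0.23), miR-15b-5p (0.31) and miR-22-3p (0.31). Neither miR-142a arm was among the nearest 3 of the other. The arms of miR-223 and miR-342-5p averaged below 100 CPM and could not be named as neighbours.

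Lists of other blood and marrow miRNAs show what stood around the members. The list of other macrophage and myeloid miRNAs, with 8 of 9 names in the table, summed to 124921, 395320 and 389449 CPM. A place on this list does not make a miRNA specific to these cells. Of its names, 7 of the 7 tested differed between libraries (90.1% of all tested miRNAs did). The median level in the list, 11141 CPM, was far above the median of the 7 members, 40.4 CPM. Highest by the mean were miR-21a-5p, miR-146b-5p, miR-146a-5p and miR-378a-3p. The higher sums of libraries 2 and 3 came from miR-21a-5p (37316, 305278 and 261488 CPM) and miR-146b-5p (6950, 41809 and 81689 CPM). MiR-378a-3p ran the other way (42113, 5710 and 5288 CPM), as did miR-511-3p at 10, 2 and 0 counts, and 4 of the 8 were lowest in library 1. In the erythroid list 3 of 7 were tested and all 3 differed, 2 of 7 were at 0 in every library, and the sums were 145, 37.8 and 19.9 CPM. The defining erythroid miRNA, miR-451a, stood at 33.9, 17.3 and 11.2 CPM, close to miR-223-5p in library 1 and below it in libraries 2 and 3. MiR-486a-5p and miR-486b-5p have the same counts and are counted under both names. In the lymphoid list 5 of 9 were tested and all 5 differed, and the sums were 2270, 3807 and 1487 CPM, most of it from miR-155-5p (also in the macrophage list), miR-181b-5p and miR-181a-5p, which other cells make too. In the megakaryocyte and progenitor list 3 of 6 were tested and all 3 differed. Its sums, 12358, 7829 and 14488 CPM, were mostly miR-10a-5p, and miR-126a-3p stood at 21.6, 43.8 and 23.7 CPM. In the stromal list 4 of 6 were tested and 2 differed, with sums of 314, 201 and 274 CPM. By CPM the erythroid and stromal sums were thus highest in library 1. The macrophage and lymphoid sums were highest in library 2, and the megakaryocyte and progenitor sum in library 3. Abundant miRNAs as a whole were higher in library 1 by CPM, with a median log2 ratio of 0.62 to library 2 and 0.96 to library 3. The sums were not rescaled for that shift. By member, 5 of 7 erythroid, 5 of 9 lymphoid, 3 of 6 megakaryocyte and progenitor and 4 of 6 stromal names were highest in library 1. So were 2 of 8 macrophage and myeloid names. The erythroid 5 hold the same miR-486 counts under both names. The lists include names too scarce to test, such as miR-144-3p at 5, 2 and 0 counts and miR-181c-5p at 2, 0 and 0. These shares lay on both sides of the 60.3% over all tested miRNAs. That value leaves scarce names out and is thus not of a like set. The shares are not read as a result about the lists. The part of other cells in these differences was not tested.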

How the data were processed

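Small RNA libraries of exosome RNA were ligated to adapters, amplified by PCR and read from 1 end for 50 bases, per the labels' protocols. No molecular identifiers are mentioned, so PCR copies are counted as reads, and ligation can favour some sequences. Per the submitters' processing notes, which give no versions, bcl2fastq and BWA were used with the build mm10. Trimming, mismatch limits, use of strand and the handling of multiply matching reads are not given in the sources used here. The authors deposited a whole-number count for each of 1915 miRNAs, which all tests used, and an RPM value, which worked out as the count per 1000000 of a denominator of which miRNA counts were 21.4%, 17.8% and 22.9% in libraries 1, 2 and 3.

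Counts were scaled to each library's miRNA total (CPM). Arms were paired by name into 749 hairpins. The arm test used edgeR 4.0.16 in R 4.3.3, its SE being the estimate over the square root of its F. Chi-square tests used SciPy 1.17.1, and p-values were Benjamini-Hochberg adjusted over all features tested. Each test was tested on simulated data. Alternatives were TMM factors, DESeq2 1.42.0, the authors' RPM, no count filter, no library term and leaving out each library. Named miRNAs are the 7 members, the leading members of the lists and the 3 nearest in pattern. MiR-511-3p and miR-181c-5p do not lead their lists and are named as scarce examples. MiR-142b, miR-150-3p and every list and member were chosen with earlier results of these data known. Library numbers came from the sample titles, and all 3 libraries formed 1 group.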

Additional observations from a re-analysis of the deposited data

How the results depend on the processing

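With 1 group, no comparison between conditions was run. No paired analysis was possible because there is only 1 group, but the arm test carries each library as a replicate block. Without that block its log2 ratio of 3p to 5p turned from -0.17 to 0.57 for miR-142a, and the calls for miR-223 and miR-342 did not change. Leaving out each library in turn gave arm-test ratios from -1.01 to 0.90 for miR-142a, from 0.13 to 0.66 for miR-223 and from 4.01 to 5.08 for miR-342, and the last passed each time. The range of the log2 arm ratio went from 0.34 to 3.84 for miR-142a, from 0.24 to 1.07 for miR-223 and from 0.44 to 2.19 for miR-342. The count of hairpins whose arm ratio differed was 43 of 84 tested without library 1, 66 of 82 without library 2 and 68 of 85 without library 3 (76 of 81 with all). That of miRNAs whose level differed was 177 of 288, 284 of 327 and 279 of 319 (318 of 353 with all). For miR-223-5p, library 1 was highest and library 2 lowest by CPM, with a log2 ratio of 0.50. The ratio of these libraries turned to -0.11 (TMM) and -0.15 (DESeq2 size factors). With TMM factors library 3 was highest and library 1 lowest, with a log2 ratio of library 1 to library 3 of -0.52. By the authors' RPM the summed share of the 7 members was 0.0283% in place of 0.142%, because its denominator holds more than miRNA counts. Leaving out each library gave 0.0948% to 0.186%. DESeq2 and the unfiltered fit changed none of the 3 arm calls. Low counts, such as 7, 14 and 15 for miR-342-5p and 37, 9 and 15 for miR-142b, limit what these depths can show.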
